A study of Mus musculus with 12 samples.

Results

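Passenger strands, marked by a star in older miRNA names, were measured beside their guide strands in mouse blood. The deposited array table lists 710 mouse miRNAs, and 119 of their IDs end in a star. Of these, 112 are described here. The other 7, miR-140* together with stars of miR-297, miR-669, miR-467 and miR-466 names, were left aside by name. A row with the same ID and no star was present for 100 of the 112 stars and was taken as the guide, and 12 stars had no such row.

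The blood came from 6 Tff3 knockout mice and 6 wild-type mice, with 3 males and 3 females of each genotype per the labels. Tff3 encodes trefoil factor 3, a small peptide that goblet cells of the intestine secrete with mucus. The labels call the mutant a Tff3 KO, the design text calls it a knock-down, and no label gives the allele, the strain or the ages. Peripheral blood of each mouse was collected in tubes that preserve RNA, the cells were pelleted, and total RNA with its small RNAs was hybridised to 1 array per mouse. Tff3 mRNA is not on the array, so the genotype has no check by its level.

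A miRNA is cut as a duplex from the stem of a hairpin transcript. One strand, the guide, is kept by an Argonaute protein and pairs with messenger RNAs through its seed, bases 2 to 8. The partner strand is the passenger or star and is mostly degraded after loading. Argonaute favours a strand with a weakly paired 5′ end and with U or A as its first base. Some hairpins yield both strands, and later naming therefore replaced the star by the arm, -5p or -3p. Blood cells are dominated by red cells, which carry over abundant miRNAs such as miR-451, miR-486 and miR-16.

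The following strands are shown because they were the brightest stars, had the largest excess of one strand, or share a seed or a whole sequence. Capitals mark the seed. Sequences are those of RefSeq (mouse GRCm38.p6), matched by hand from the old star name to the later arm name, which succeeded for 100 of the 112 stars.
miR-17*: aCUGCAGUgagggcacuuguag
miR-17: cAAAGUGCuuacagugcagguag
miR-20b*: aCUGCAGUgugagcacuucuag
miR-93*: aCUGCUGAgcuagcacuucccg
miR-93: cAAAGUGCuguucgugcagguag
miR-106b*: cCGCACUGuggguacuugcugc
miR-106b: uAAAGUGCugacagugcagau
miR-7a*: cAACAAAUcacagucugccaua
miR-7a: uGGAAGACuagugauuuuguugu
miR-330*: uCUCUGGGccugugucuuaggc
miR-330: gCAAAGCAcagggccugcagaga
miR-674*: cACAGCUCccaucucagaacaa
miR-674: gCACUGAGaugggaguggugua
let-7i*: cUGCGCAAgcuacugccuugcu
let-7a*: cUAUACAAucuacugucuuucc
let-7c-2*: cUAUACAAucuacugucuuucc
let-7b*: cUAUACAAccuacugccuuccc
let-7f*: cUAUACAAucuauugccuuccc
let-7a: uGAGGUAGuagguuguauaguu
miR-16*: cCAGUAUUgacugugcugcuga
miR-16: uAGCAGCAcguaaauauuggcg
miR-15b*: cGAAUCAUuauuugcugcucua
miR-15b: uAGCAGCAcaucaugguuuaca
The guides of miR-17, miR-93 and miR-106b have 1 seed, AAAGUGC, whereas their stars have 3 different seeds. miR-17* shares its seed CUGCAGU with miR-20b*. The stars of let-7a, let-7b, let-7c-2 and let-7f share the seed UAUACAA, and let-7a* and let-7c-2* are identical over their whole length.

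Over all members with both sequences, 14 guide seeds were shared by 2 or more members. The 43 stars in these groups carried 35 different seeds, and in 10 of the 14 groups every star had a seed that no other star of its group had. Stars of hairpins with the same guide seed thus often differed in their own seeds. The groups were formed by guide seed, so the likeness of the guides was set by that choice. Some groups hold a single guide cut from different hairpins, as for miR-181a, miR-24 and miR-218. Among the 95 members with both sequences, 17 stars began with U, 28 with A, 37 with C and 13 with G. Of their guides, 55 began with U, 24 with A, 8 with C and 8 with G. The median GC content was 50% for the stars and 43.5% for the guides. Of the 100 matched stars, 62 lay on the 3p arm and 38 on the 5p arm of the hairpin.

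Signal is given as a level, log2 of the quantile-normalized intensity plus 50, on which a difference of 1 is a doubling for bright miRNAs and a larger ratio than that for dim ones. An intensity of 0 has a level of 5.64. The noise bound of an array is the size of its lowest value below 0, between 24 and 64 intensity units, and a strand counted as above noise if it exceeded the bound on at least 6 of the 12 arrays. Summed intensity per array was 629500 ± 118637 in knockouts against 632978 ± 278969 in wild types (SD of 6; exact two-sided permutation p = 0.976). These like means hide a split by column among the wild types. Wild-type columns 7 and 8 had the highest sums of all arrays, 814648 and 1111471. Wild-type columns 10 to 12 had the lowest, between 391740 and 451777. The labels do not tie wild-type columns 7 to 12 to single mice, so these were used here without a sex. Each of the 12 columns did match its own column of the authors' value table in rank. That table is named by sample, and sex was used only with it. Erythroid, platelet, myeloid and lymphocyte marker miRNAs were present in both genotypes, with log2 of the summed marker intensity plus 50 between 15.3 and 15.6 in knockouts and between 15.3 and 15.8 in wild types for the erythroid set. Lymphocyte sums ran from 10.96 to 12.6 in knockouts and from 11.7 to 12.6 in wild types, and platelet sums from 12.4 to 12.9 in knockouts and from 12.1 to 13.0 in wild types. Myeloid sums ran from 11.6 to 11.9 in knockouts and from 10.7 to 13.4 in wild types. One myeloid marker, miR-142-3p, exceeded the noise bound on only 5 of the 12 arrays. Single markers differed more, by -1.08 for the lymphocyte miR-181a, -0.60 for the lymphocyte miR-342-3p and 1.02 for the erythroid miR-144 on the log2 scale. None of these passed the threshold (limma, adjusted p = 0.135, 0.535 and 0.415). The other lymphocyte marker, miR-150, differed by 0.16. The other erythroid markers, miR-451, miR-486 and miR-210, differed by -0.09, -0.04 and -0.38. The single hepatocyte marker, miR-122, ran from 6.68 to 12.3 in knockouts and from 6.95 to 12.9 in wild types. Its mean was 8.09 in knockouts and 9.99 in wild types, a difference of -1.90 with a standard error of 1.06 (limma, adjusted p = 0.619). Skeletal and heart muscle sums ran from 8.42 to 10.08 in knockouts and from 8.46 to 9.58 in wild types. Intestinal epithelium sums ran from 11.8 to 13.0 in knockouts and from 12.3 to 13.3 in wild types. Smooth muscle and stroma sums ran from 8.17 to 11.2 in knockouts and from 8.55 to 9.47 in wild types. In the last set, miR-145 was at 10.68 in knockout 6, above its level on every other array. The part of other tissues or of cell make-up in the values below was not tested, and in whole blood fewer cells of a type cannot be told apart from less RNA per cell. Precision of all values is limited by the 6 arrays per genotype.

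Stars were dim, and how many were measurable depended on the noise bound. Of the 112 stars, 90 (80.4%) lay above noise, against 88 of the 100 guides and 604 of all 710 miRNAs (85.1%). The count of stars was 50 with 2 times the bound and 32 if all 12 arrays were required. The median level was 6.95 for the stars and 7.76 for the guides. The stars held 1.42% to 2.59% of the summed intensity in knockouts, with a median of 1.97%, and 1.20% to 3.12% in wild types, with a median of 2.08%. The mean share was 1.94 ± 0.51% in knockouts against 2.10 ± 0.77% in wild types (SD of 6; exact two-sided permutation p = 0.693). The mean star level was 7.01 ± 0.020 in knockouts against 7.02 ± 0.038 in wild types (SD of 6; exact two-sided permutation p = 0.647). The mean guide level was 8.62 ± 0.046 in knockouts against 8.62 ± 0.063 in wild types (p = 0.970 in the same exact permutation test). Quantile normalization gives every array the same set of values, which limits how far these mean levels can differ. Their p-values therefore do not test a shift shared by all miRNAs.

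The brightest star was miR-17*, from the miR-17/92 cluster that drives growth of blood cell precursors and lymphomas. It ran from 9.24 to 10.17 in knockouts, with a median of 10.00, and from 9.41 to 10.83 in wild types, with a median of 10.15. The groups overlapped, and the log2 difference of -0.25 had a standard error of 0.22. Its strand partner miR-17 was at 12.19 ± 0.18 in knockouts against 12.30 ± 0.18 in wild types (mean ± SD of 6).

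The next brightest were miR-7a*, miR-674* and miR-330*. miR-7a, known from neurons and endocrine cells, is cut in part from a hairpin within the Hnrnpk gene. miR-7a* ran from 8.82 to 9.70 in knockouts (median 9.44) and from 8.06 to 9.86 in wild types (median 9.56). The lowest value, 8.06 in wild type 12, lay well below the other wild types. miR-674* ran from 8.42 to 9.25 in knockouts (median 8.95) and from 8.71 to 9.70 in wild types (median 8.98). miR-330*, whose hairpin lies in the microtubule-associated Eml2 gene, ran from 8.55 to 9.41 in knockouts (median 8.83) and from 8.25 to 9.54 in wild types (median 8.56). For these 3 stars the genotypes overlapped over most of their range, and the log2 differences were 0.03, -0.13 and 0.07.

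miR-93* and miR-106b* lie, by RefSeq, within the gene Mcm7, which encodes a subunit of the DNA replication helicase, and belong to a cluster that is a paralogue of miR-17/92. miR-93* ran from 8.50 to 9.29 in knockouts (median 8.67) and from 8.46 to 9.25 in wild types (median 8.97). miR-106b* ran from 8.01 to 8.46 in knockouts (median 8.28) and from 8.20 to 9.12 in wild types (median 8.71). Both groups of miR-93* spanned nearly the same range, while for miR-106b* only the lowest wild type lay within the range of the knockouts.

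The 10 brightest stars were completed by miR-712*, let-7i*, miR-24-2* and miR-322*. let-7i* averaged 8.36 ± 0.21 in knockouts against 8.36 ± 0.50 in wild types, each a mean ± SD of 6 mice. miR-24-2* ran from 7.81 to 8.18 in knockouts (median 7.95) and from 7.44 to 8.55 in wild types (median 7.98), and miR-322* from 7.87 to 8.26 in knockouts (median 7.96) and from 7.82 to 8.11 in wild types (median 7.95). miR-322 is the mouse counterpart of human miR-424 and shares the miR-16 seed. miR-712, described in mouse as cut from the precursor of ribosomal RNA, is taken up with the genotype comparison.

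**Figure D1:**
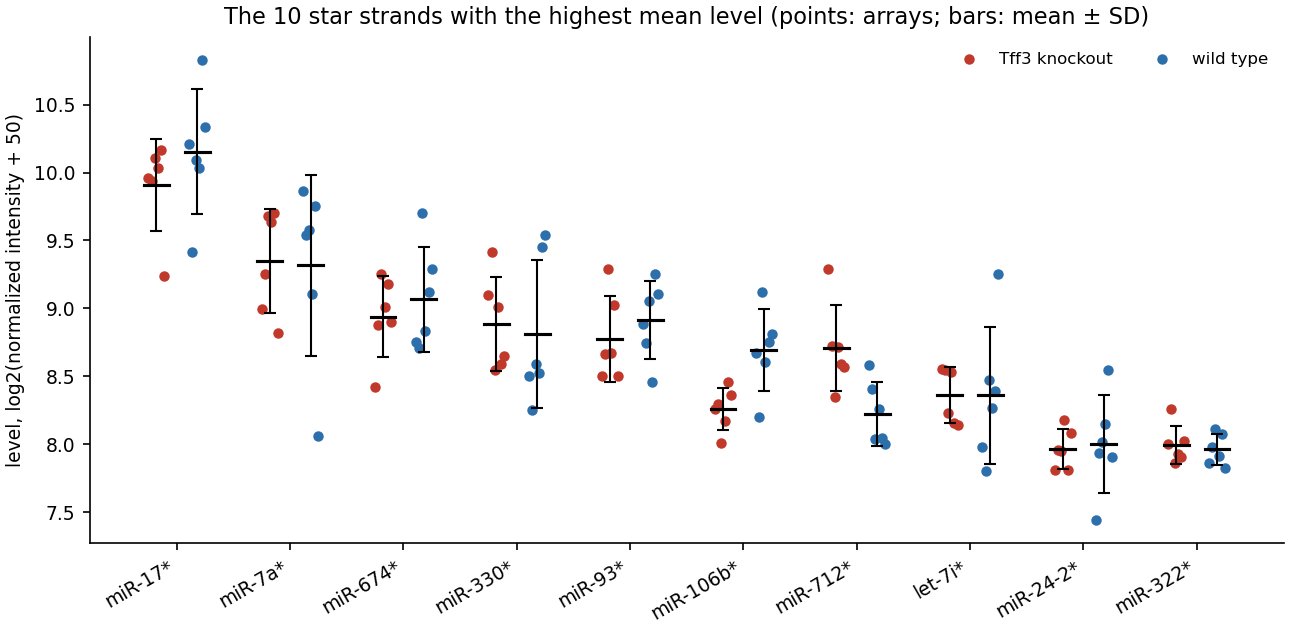
Levels of the 10 brightest stars on each array, as log2(normalized intensity + 50), with knockouts (red) left of wild types (blue), points for arrays and bars for the mean ± SD of 6 arrays. miR-17* stands highest in both genotypes, and the genotypes overlap for each of the 10 stars.

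Array signal of the star was set beside that of its guide in the 100 pairs. Different probes bind and label with different efficiency, so a gap between the strands of a pair is a gap in signal and not in molecules. The guide was brighter in 69 pairs and the star in 31. On all 12 arrays the guide was higher in 61 pairs and the star in 10. The median of star minus guide was -0.998 on the log2 scale, with a range of -7.94 to 3.19. The guide exceeded the star by more than 1 in 50 pairs and by more than 3 in 25 pairs, whereas the star exceeded the guide by more than 1 in 7 pairs. For the 74 pairs named -5p and -3p in the same table, where no strand is marked as passenger, the median of 5p minus 3p was -0.03. The range was -3.52 to 4.14. On all 12 arrays the 5p strand was higher in 19 of these pairs and the 3p strand in 20. The order of the arms is set by their names, so this median does not measure how unequal the strands were.

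The widest excess of a guide belonged to miR-15b and miR-16 of the growth-restraining miR-15/16 family, whose guides had the highest levels in these pairs. miR-15b* had a mean level of 7.02 and miR-15b of 14.96, a gap of -7.94. miR-16* was at 7.62 and miR-16 at 15.004, a gap of -7.39. miR-15a of this family had a gap of -5.42. These stars lay above noise on 11 or 12 of the 12 arrays, so they were measured yet contributed little signal. In the same family miR-503 had a gap of -1.66 and miR-322 of -0.17, with guide levels of 8.32 and 8.15.

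The list of the 10 widest excesses of the guide was limited to pairs with the star above noise, and the choice fixes the direction. It leaves out miR-30b, with a gap wider than that of miR-191 below, and miR-29a. Their stars exceeded the noise bound on 2 and 1 of the 12 arrays. The other pairs of the list also had bright guides. miR-191 and miR-425, which are transcribed together, had gaps of -7.10 and -6.39. miR-92a of the miR-17/92 cluster had a gap of -6.36, let-7d of -6.10 and miR-22, a miRNA of myeloid and red cell precursors, of -5.97. miR-744 and miR-106b had gaps of -5.14 and -5.11. In each of these 10 pairs the guide was higher on all 12 arrays. Not every bright guide had so wide a gap, as miR-17 at 12.24 had -2.21 and miR-93 at 12.77 had -3.92.

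Of the 31 pairs with the brighter star, 19 had both strands above noise, 9 had the star alone above noise, and in 3 the star was not above noise. miR-196a, encoded in Hox gene clusters, had the widest excess. miR-196a* was at 7.86 and miR-196a at 4.67, a level below that of an intensity of 0, so the excess of 3.19 cannot be read as a ratio of strands. miR-330* was at 8.85 and miR-330 at 6.16, an excess of 2.69, with the guide above noise on 3 arrays. miR-7a had the widest excess with both strands above noise. miR-7a* was at 9.33 and miR-7a at 6.72, an excess of 2.61, with the star higher on 12 of 12 arrays and the guide above noise on 8.

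The neuronal miR-9 had a star excess of 1.85, with miR-9* at 7.56 and miR-9 at 5.71. miR-881, from a cluster on the X chromosome, had an excess of 1.57, and miR-872, within the Ift74 gene, an excess of 1.15. For these 3 the guide was above noise on 1 to 3 arrays. The embryonic stem cell miRNAs miR-302b and miR-294 had star excesses of 1.36 and 0.98, and neither guide was above noise. The miR-302b guide, at 5.15, lay below the level of an intensity of 0, so its excess cannot be read as a ratio of strands. miR-34c, a target of the tumour suppressor p53, and miR-146b, which is induced in inflammation, had both strands above noise, the star higher on all 12 arrays, and excesses of 0.88 and 0.87. miR-325 and miR-382 followed with 0.73 and 0.66, and their guides were not above noise.

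**Figure D2:**
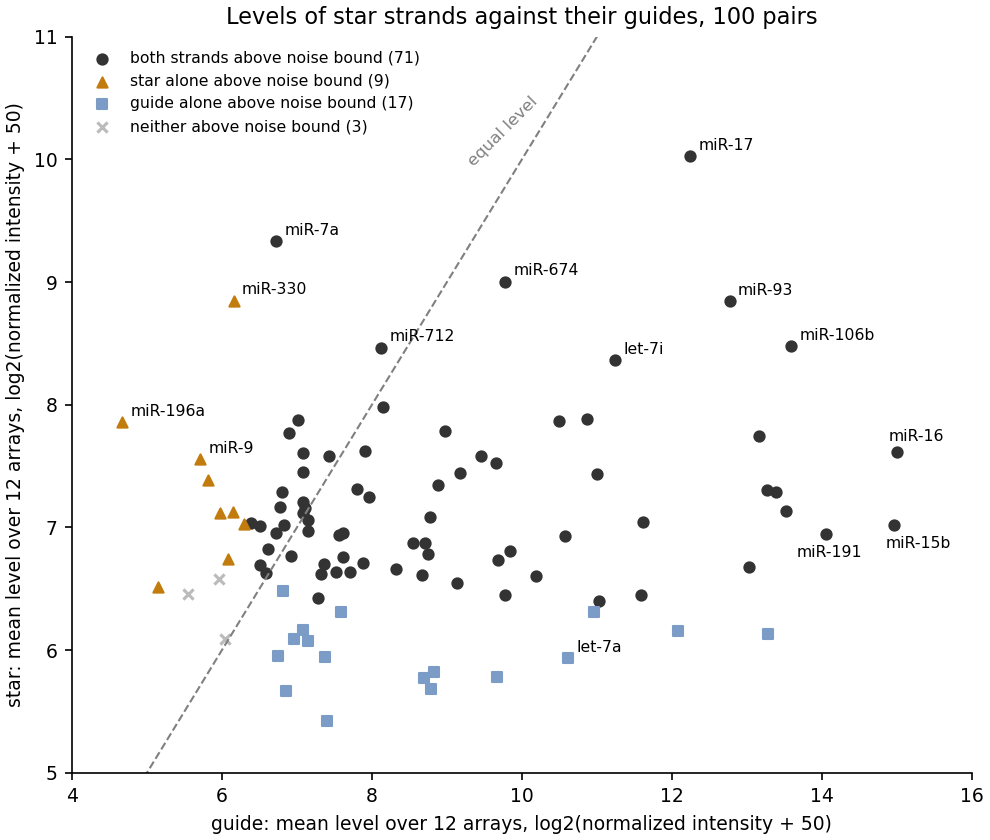
Mean level of each star against that of its guide over 12 arrays, both as log2(normalized intensity + 50), with 1 point per pair, the marker showing which strand lay above noise, and a dashed line of equal level. Guides spread up to a level of 15.004 while stars stay at or below 10.03, and 31 pairs lie above the line.

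Stars with more G and C tended to be brighter. The median level was 6.61 for the 30 stars with a GC content under 45%, 6.95 for the 52 stars from 45% to under 55%, and 7.55 for the 18 stars of 55% or more. Across the 100 matched stars, Pearson's r of level and GC content was 0.42 and Spearman's rho 0.43. Across the 84 guides with a sequence r was 0.11. These correlations are across miRNAs that share the same arrays and serve as a description only. The part of probe binding in them was not tested.

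The main comparison set the star strands of Tff3 knockout blood against those of wild-type blood. No star, and no guide of a star, passed the threshold of limma's moderated test with Benjamini-Hochberg adjustment over all 710 miRNAs. The test called 0 of 112 stars and 0 of 100 guides at an adjusted p of 0.05, where 0% of all miRNAs were called. At an unadjusted p of 0.05, 6 stars (5.36%) and 7 of the guides stood out, against a background of 9.01% of all miRNAs. The exact Wilcoxon test called 0 stars. With 6 against 6 arrays its smallest possible p passes the adjustment only if many miRNAs reach it together, so this count adds little. At an unadjusted p of 0.05 that test had 7 stars, and its share over all miRNAs was not counted. No star had genotypes that did not overlap, against 0.704% of all miRNAs. The sizes of the differences were balanced, with 57 stars higher and 55 lower in knockouts, a median log2 difference of 0.0031 and a range of -0.50 to 0.75. The median difference of all miRNAs was -0.0015. The 95% interval of a star's difference reached, at the median, 0.40 to either side, before any adjustment over miRNAs. With 6 mice per genotype, differences of that size and up to 0.75 did not pass after adjustment.

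The largest difference among the 10 stars with the smallest p belonged to let-7c-2*, from a hairpin of the growth-restraining let-7 family. It ran from 6.07 to 6.99 in knockouts (median 6.59) and from 5.08 to 6.45 in wild types (median 5.74). The log2 difference was 0.75 (SE 0.24; limma, adjusted p = 0.308). Its size depended on the offset, with 3.08 for an added 1, 0.23 for an added 200, and 0.40 with the column covariate described below. It exceeded the noise bound on 4 knockout arrays and 1 wild-type array. let-7a* stood on the other side, from 5.15 to 6.13 in knockouts (median 5.70) and from 5.59 to 6.69 in wild types (median 6.31), a difference of -0.49 (SE 0.22), or -1.79 and -0.15 with those 2 offsets. It exceeded the bound on 0 knockout arrays and 1 wild-type array.

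Among the bright stars, miR-712* ran from 8.35 to 9.29 in knockouts (median 8.65) and from 8.01 to 8.58 in wild types (median 8.15). The difference was 0.48 with a standard error of 0.17 (limma, adjusted p = 0.405). miR-106b* differed by -0.43 with a standard error of 0.16 (limma, adjusted p = 0.412). With the columns numbered 1 to 8 and 9 to 12 as a covariate, which sets the knockouts against wild types 7 and 8 alone, these differences were 0.21 for miR-712* and -0.17 for miR-106b*.

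Of the other stars with the smallest p, miR-872* averaged 6.94 ± 0.20 in knockouts against 7.30 ± 0.24 in wild types, and miR-16* 7.45 ± 0.19 in knockouts against 7.79 ± 0.28 in wild types (mean ± SD of 6). miR-881* averaged 7.56 ± 0.24 in knockouts against 7.21 ± 0.25 in wild types. The epithelial miR-200b* was at 6.95 ± 0.26 in knockouts against 7.28 ± 0.28 in wild types, and the muscle strand miR-133a* at 7.49 ± 0.16 in knockouts against 7.21 ± 0.23 in wild types. miR-295*, from a hairpin cluster of embryonic stem cells, was at 6.42 ± 0.29 in knockouts against 6.84 ± 0.54 in wild types and exceeded the noise bound on 2 knockout and 4 wild-type arrays. With the column covariate its difference turned to 0.25. Adjusted p-values of these 6 stars lay between 0.490 and 0.605 in limma's test.

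**Figure D3:**
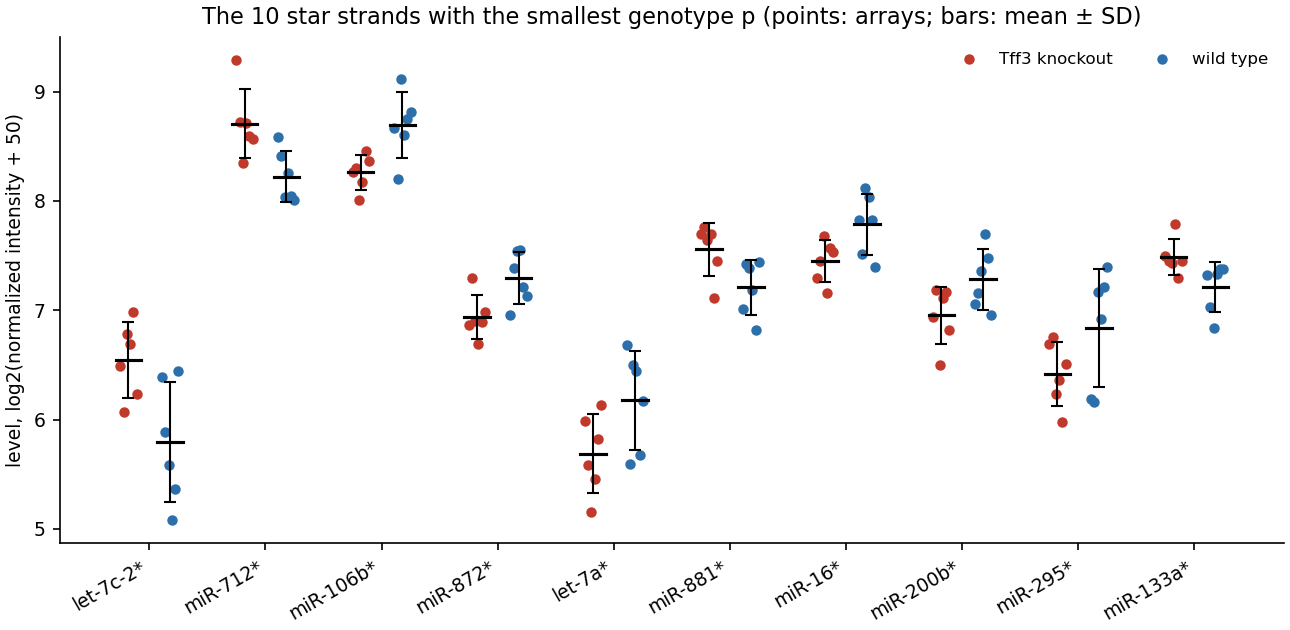
Levels of the 10 stars with the smallest genotype p on each array, as log2(normalized intensity + 50), with knockouts (red) left of wild types (blue), points for arrays and bars for the mean ± SD of 6 arrays. The knockout mean is higher for 4 stars and lower for 6, and points of both genotypes overlap for each star.

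let-7a* and let-7c-2* are printed above with the same sequence, from hairpins on chromosomes 13 and 15 of RefSeq's assembly, yet their rows differed in opposite directions. On the 6 knockout arrays let-7c-2* exceeded let-7a* by 0.11 to 1.63. On wild-type arrays let-7c-2* minus let-7a* ran from -1.36 to 0.30 and was below 0 on 4 of the 6. Raw intensities of let-7c-2* were 20 to 60 in knockouts and -20 to 48 in wild types, and those of let-7a* -24 to 32 in knockouts and -8 to 52 in wild types. The noise bounds of the arrays run from 24 to 64, and the counts of arrays on which either star exceeded its bound are those given above. This pair was chosen for its sequence after the values had been seen, and no test was made of it. The probe letters behind each ID were not analysed here.

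Other stars close in sequence had values of unlike or like sign. miR-30a* and miR-30e* differ at 1 base and had log2 differences of -0.15 and 0.24. miR-376b* and miR-376c* differ at 1 base and had differences of 0.19 and -0.14. let-7b* and let-7f*, with 2 mismatches, had differences of 0.18 and 0.19, and miR-181a-1* and miR-181a-2*, also with 2, of -0.09 and -0.28. Values of stars this close may mix signal of both strands and are uncertain.

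**Figure D4:**
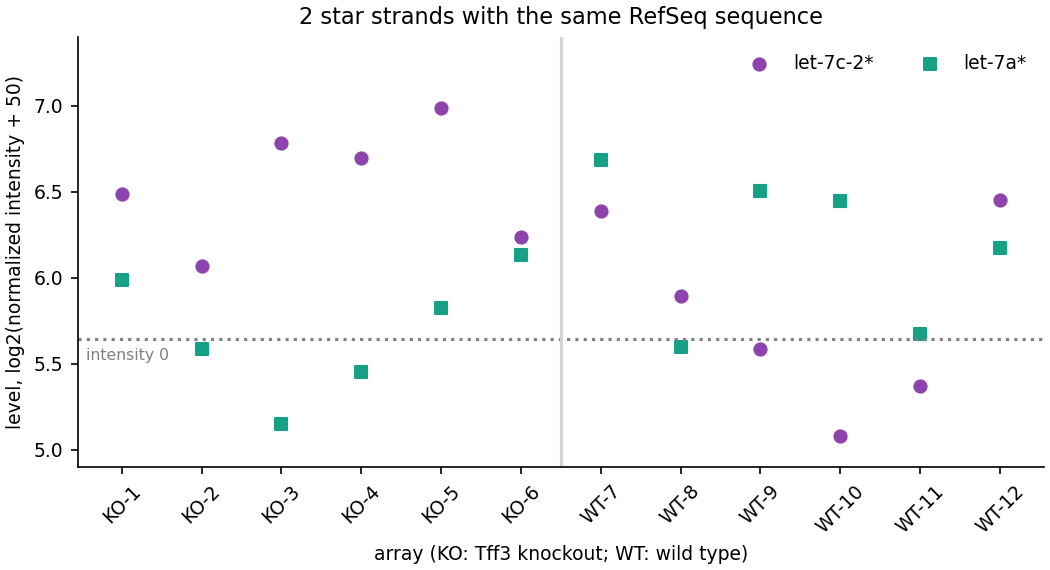
Levels of let-7c-2* (circles) and let-7a* (squares) on each of the 12 arrays, knockouts left of the grey line and wild types right of it, as log2(normalized intensity + 50), with a dotted line at an intensity of 0. let-7c-2* is higher on all 6 knockout arrays and let-7a* on 4 of the 6 wild-type arrays, close to the dotted line.

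The balance between the strands of a hairpin was compared between genotypes through star minus guide on the same array, in which the efficiency of a probe cancels for bright strands. For dim strands the added 50 keeps it from cancelling fully. Of the 100 pairs, limma called 0 at an adjusted p of 0.05 over all arm pairs of the table, where 0% were called. At an unadjusted p of 0.05, 4 pairs stood out (4.00%), against 6.08% of all arm pairs. The exact Wilcoxon test, with the limit given above for stars, called 0 pairs. At an unadjusted p of 0.05 that test had 3 pairs, and its share over all arm pairs was not counted. The difference between genotypes was positive in 52 pairs and negative in 48, with a median of 0.013. At the median, the 95% interval reached 0.58 to either side. Star and guide differed in the same direction in 51 of 100 pairs. No pair had genotypes that did not overlap, and 0% of all arm pairs did.

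The smallest p belonged to miR-712, for which star minus guide ran from 0.17 to 1.38 in knockouts (median 0.62) and from -0.33 to 0.28 in wild types (median 0.04). The genotypes overlapped at 1 end only. The log2 difference was 0.71 with a standard error of 0.24 (limma, adjusted p = 0.358), made up of 0.48 for the star and -0.23 for the guide. let-7a differed by -0.80 with a standard error of 0.28, with a star mostly under the noise bound and a guide that differed by 0.31. With offsets of 1 and 200 the pair's difference was -2.11 and -0.43. miR-881 differed by 0.89 with a standard error of 0.33, and its guide exceeded the noise bound on 1 array. The difference was 2.23 with an offset of 1 and 0.30 with an offset of 200. miR-22 was measured on both strands. Its star minus guide ran from -6.62 to -5.90 in knockouts (median -6.08) and from -6.08 to -5.38 in wild types (median -5.62), a difference of -0.51 (SE 0.22). The genotypes overlapped between -6.08 and -5.90.

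The other 6 pairs with the smallest p differed by less than 0.63 in size, with adjusted p-values of 0.637 in limma's test. miR-674 differed by 0.43, where the star difference was -0.13 and the guide difference -0.56, and by 0.088 with the column covariate. For miR-483, from within the insulin-like growth factor 2 gene, the pair differed by 0.57, with -0.13 for the star and -0.70 for the guide, and by 0.37 without knockout 1. miR-16 differed by -0.47, with -0.34 for the star and 0.14 for the guide. miR-9 and miR-30b differed by -0.61 and -0.55, and their stars by -0.10 and 0.03. The pair of miR-433, a miRNA of the imprinted Dlk1-Dio3 region, differed by -0.62, and with the column covariate this turned to 0.0081. Without wild type 11 it was -0.38.

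**Figure D5:**
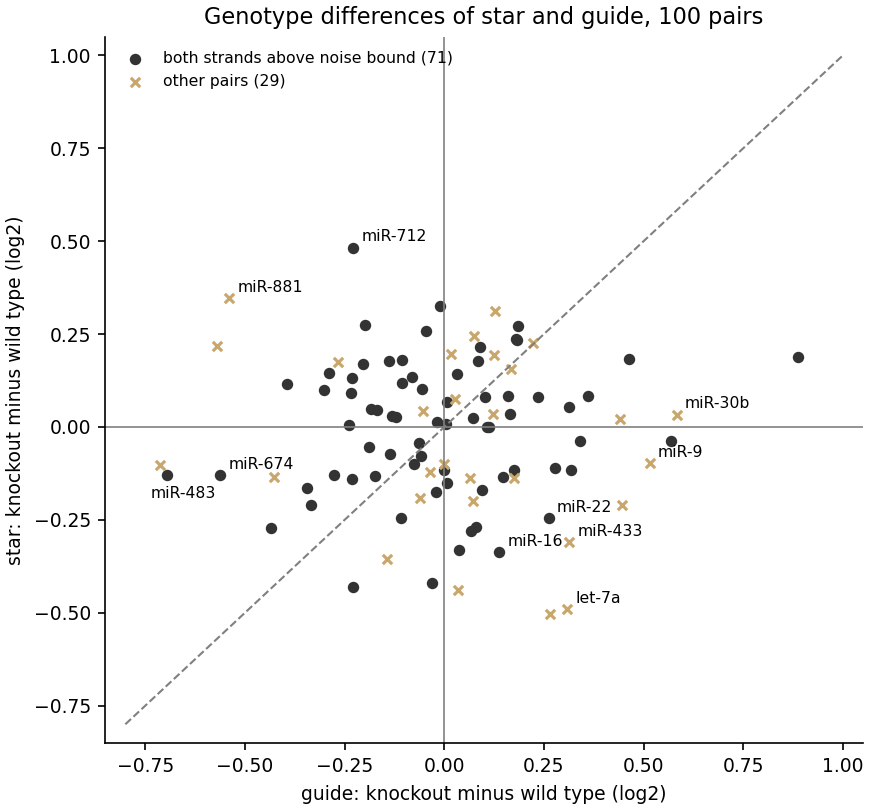
Log2 difference of knockout minus wild type for the star (vertical axis) against the guide (horizontal axis), with 1 point per pair, the marker showing whether both strands lay above noise, and a dashed line of equal difference. The 10 pairs with the smallest p for star minus guide are named, and 51 of 100 pairs have the same sign on both axes.

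Stars were also grouped by the family of their hairpin, and in none of the 12 groups did a star pass the threshold. In the let-7 family, 5 of 8 stars were higher and 3 lower in knockouts, with a median log2 difference of 0.05 and 6 stars above noise. let-7g* was at 7.51 ± 0.21 in knockouts against 7.54 ± 0.25 in wild types, and let-7d* at 7.34 ± 0.26 in knockouts against 7.24 ± 0.46 in wild types (mean ± SD of 6). Among the 8 stars of miR-17/92 and its paralogues, 3 were higher and 5 lower, with a median difference of -0.11. miR-20b* of the X-linked paralogue was at 8.03 ± 0.36 in knockouts against 7.71 ± 0.34 in wild types. In the miR-15/16 family, 1 star was higher and 4 were lower, with a median of -0.11. miR-15a* was at 7.68 ± 0.23 in knockouts against 7.81 ± 0.21 in wild types. The medians of all families lay between -0.13 and 0.20, against -0.0015 over all miRNAs.

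Of the 7 stars from hairpins typical of blood cells, 3 were higher and 4 lower in knockouts, with a median of -0.09. miR-21*, partner of a miRNA induced in activated leukocytes, was at 7.97 ± 0.41 in knockouts against 7.80 ± 0.32 in wild types. miR-146b* was at 7.92 ± 0.17 in knockouts against 7.84 ± 0.34 in wild types. The lymphocyte strand miR-181a-1* was at 7.34 ± 0.10 in knockouts against 7.43 ± 0.47 in wild types (mean ± SD of 6). The miR-30 stars numbered 5, with 3 higher and 2 lower, and miR-30c-1* led them at 7.12 ± 0.21 in knockouts against 6.82 ± 0.50 in wild types. Of the 3 miR-29 stars, whose guides target collagen mRNAs, 0 lay above noise. The 4 stars of the miR-23, miR-27 and miR-24 clusters were split evenly, and miR-24-1* was at 7.15 ± 0.25 in knockouts against 7.02 ± 0.27 in wild types.

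Hairpins of other tissues were also measured. Of 12 stars from the imprinted Dlk1-Dio3 region, 7 lay above noise, 5 were higher and 7 lower in knockouts, and the median difference was -0.13. miR-127* led them at 7.69 ± 0.16 in knockouts against 7.52 ± 0.19 in wild types. The 5 epithelial stars had a median of 0.01, and miR-141* was at 7.35 ± 0.15 in knockouts against 7.56 ± 0.22 in wild types. Of 7 muscle and brain stars, 5 were higher and 2 lower, with a median of 0.02. The 6 stromal stars had a median of 0.0030, led by miR-34c* at 7.81 ± 0.21 in knockouts against 7.73 ± 0.20 in wild types. The 4 stars of miR-10, miR-99 and miR-125 had a median of 0.04, led by miR-10b* at 7.29 ± 0.20 in knockouts against 7.05 ± 0.19 in wild types.

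Females and males were compared within the knockouts, whose columns match the labels. Columns 1 to 3 hold the males and columns 4 to 6 the females, so sex and column order cannot be told apart. limma called 0 of 112 stars, where 0% of all miRNAs were called. At an unadjusted p of 0.05 there were 2 stars (1.79%), against 7.46% of all miRNAs. The exact Wilcoxon test had 0, but with 3 against 3 arrays it could not reach a p of 0.05. miR-29a* was at 6.38 ± 0.17 in females against 5.84 ± 0.27 in males (mean ± SD of 3), a difference of 0.55 with an adjusted p of 0.588 in limma's test. It exceeded the noise bound on 1 of the 12 arrays. miR-199b*, a stromal strand, was at 7.05 ± 0.27 in females against 6.56 ± 0.04 in males, and miR-1982* at 7.55 ± 0.24 in females against 6.97 ± 0.48 in males.

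The interaction of genotype and sex was tested on the authors' normalized value table, whose columns are named by sample. It asks whether the gap between females and males differs between genotypes. limma called 0 of 112 stars, where 0% of all miRNAs were called. At an unadjusted p of 0.05 there were 7 stars (6.25%), against 5.92% of all miRNAs. The 3 smallest p-values belonged to miR-181a-1*, let-7b* and miR-374*. For miR-181a-1*, females minus males was -0.13 in knockouts against 0.70 in wild types, an interaction of -0.83 with a standard error of 0.28. For let-7b* it was 0.27 in knockouts against -0.65 in wild types, and for miR-374* -0.09 in knockouts against 0.81 in wild types. All 3 had an adjusted p of 0.679 in limma's test. miR-374* exceeded the noise bound on only 1 array, with raw intensities from -28 to 56, so its gaps between the sexes are uncertain.

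Strands of 1 hairpin come from the same transcript, and star and guide were compared over the 12 arrays after removing the mean of each genotype. The median Pearson's r was -0.05 over the 100 pairs, with quartiles of -0.25 and 0.26, and 46 pairs were positive. Over the 71 pairs with both strands above noise the median was -0.0054, with 35 positive. A star set against the guide of another hairpin had a median r of 0.0042 over 9900 combinations. All these values share the same arrays and normalization.

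Of the 10 brightest stars, 9 had a guide row, and r was tested for these by permutation with adjustment over the 9. miR-674* followed its guide with r = 0.72 and rho = 0.72 (n = 12; permutation adjusted p = 0.073 and 0.088). Without the 2 arrays farthest from the median r was 0.65, and within genotypes it was 0.93 in knockouts against 0.72 in wild types. miR-17* had r = 0.67 and rho = 0.31 (n = 12; permutation adjusted p = 0.086 and 0.568), and without the 2 farthest arrays r was -0.17, so the relation rests on those arrays. miR-106b* had r = 0.60 and rho = 0.53 (n = 12; permutation adjusted p = 0.099 and 0.338). The other 6 had r between -0.54 and 0.32. None of the 9 passed the threshold after adjustment.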

How the data were processed

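Blood RNA of 12 mice, 6 per genotype, was profiled on miRNA arrays with biotin labelling by primer extension, per the labels' protocols. The authors deposited a table of linear intensity values for 710 miRNAs, 3.31% of them below 0, and a value table of normalized linear intensity with a floor of 1, which matched the first column by column in rank (Spearman's rho of at least 0.99997). The sources used here give no background method, scanner, miRBase release or build. Intensities were quantile-normalized and transformed to log2(value + 50), from the deposited intensities. Fits used limma 3.58.1 in R 4.3.3 (lmFit, eBayes), with two-sided p-values adjusted by Benjamini-Hochberg over the 710 miRNAs, or over all arm pairs, and a threshold of 0.05. The fits were tested on simulated data. Single values were compared by exact permutation over all arrangements of the arrays. Figures used matplotlib 3.10.9 in Python 3.11.15.

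The members and lists were chosen with earlier results of these data known. Strands named are the 10 brightest stars, the 10 stars and 10 pairs with the smallest genotype p, the 12 and 10 widest excesses of star and guide with the star above noise, the 3 smallest p for sex and for interaction, and up to 4 of the brightest per family. Strands of shared seed or sequence were added for that reason. Alternatives covered normalization, offset, filter, variance model, array weights, the Wilcoxon test, a column covariate, the value table with sex or replicate number, and each array left out. Deviations of same-numbered knockouts and wild types were weakly correlated, and a pairing by number was not tested. Mice were separate animals per the labels' protocols.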

Additional observations from a re-analysis of the deposited data

Results flagged for a closer look

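The level of miR-17* in knockout 6 was 9.24, while the other 5 knockouts lay between 9.93 and 10.17 with a mean of 10.04. The gap to the nearest of them was 0.751 of the range of the 6 knockouts, above Dixon's critical value of 0.625. Of 60 groups of 6 arrays examined over 30 results, this was the 1 group with such an array (1.67%), where chance gives about 5%. The guide miR-17 was also lowest in knockout 6 among the knockouts, at 11.91.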

How the results depend on the processing

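Counts past the threshold stayed at 0 for stars, guides and star-minus-guide pairs under all 25 alternatives each, for sex under 16 and for the interaction under 13. Unadjusted counts ran from 1 to 10 for stars, 1 to 13 for guides and 2 to 12 for pairs. The shares over all miRNAs or arm pairs under each alternative were not counted, so these ranges serve as a description only. With the replicate number as a block, on the value table, 0 stars, 0 guides and 0 pairs were called. The correlations of same-numbered deviations ran from -0.116 to 0.184. They were not set against those of differently numbered mice, so whether the numbers pair samples was not tested. Leaving out each array gave 0 calls throughout and 29 to 31 pairs with the brighter star. Of the alternative values for the 20 named differences, all but 2 kept their direction and side of the threshold. Their sizes moved more, chiefly with the offset, from 0.23 to 3.08 for let-7c-2* and from 0.30 to 2.23 for star minus guide of miR-881. With the column covariate miR-295* turned to 0.25 and star minus guide of miR-433 to 0.0081. The cause was not tested. The number of stars above noise was 50 with 2 times the bound and 32 if all 12 arrays were required. With 3 against 3 arrays the exact Wilcoxon test for sex could not reach the threshold. Between genotypes that test could call a strand only if many strands reached its smallest p together. Dim strands, near the noise bound, have little resolution.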
